A study of Homo sapiens with 35 samples.

Results

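The cytosolic ribosomal protein genes encode the protein part of the ribosome outside mitochondria. They were taken as the protein-coding genes named RPL, RPS or RPLP with a number, an optional X, A or final letter, together with RPSA, and without the RPS6K kinases or symbols ending in L. Of 19974 protein-coding genes on chromosomes 1 to 22 and X, 77 met this rule, 46 for the large and 31 for the small subunit. Blood progenitors were differentiated from H1, a widely used human embryonic stem cell line, and their accessible DNA was tagged by a transposase and sequenced (ATAC-seq). The labels give 35 libraries, where the design text counts 44: 12 labelled doxee17 with doxycycline (dox) and 11 labelled doxee17 without it, both in batch 1, and 12 labelled h1, untreated, in batch 2. They cover 6 days from day 10 to day 20 in 18 groups of 1 to 3 libraries, and the series asks what ectopic MYC, switched on by doxycycline, does to such progenitors. Every library is labelled as the H1 hESC line, and the labels do not say whether doxee17 is a single clone or how its transgene is driven. The values analysed here are 1 list of peaks that names no library, so doxycycline, day and line could not be compared here, no replicate error can be given and no test was made.

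Every growing cell needs ribosomes, and these genes are active in nearly all cells and are among the most strongly transcribed. Most of their messages begin with a C inside a run of pyrimidines, the terminal oligopyrimidine tract, through which growth signalling controls their translation. MYC is known to raise ribosome production, and several inherited or acquired anemias are caused by the loss of 1 copy of such a gene.

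The promoters below are those that the results turn on. RPL18 and RPS12 had the highest peaks of each subunit among members with a promoter entry, RPL17 and RPS4X the lowest peaks of those with a summit, and RPL13A had no summit at its ends. The other 6 show the sequence matches described further on. Each runs from 80 bases before the first annotated start to the first 30 bases after it, from RefSeq on GRCh38.p14. Capitals mark the pyrimidine run over a start that is C (at least 5 bases) and every searched motif that lies wholly in the printed window.
RPL18, chr19:48619149-48619258, minus strand: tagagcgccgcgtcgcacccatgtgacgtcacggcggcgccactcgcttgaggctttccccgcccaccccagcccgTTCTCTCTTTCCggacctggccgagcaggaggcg
RPS12, chr6:132814489-132814598, plus strand: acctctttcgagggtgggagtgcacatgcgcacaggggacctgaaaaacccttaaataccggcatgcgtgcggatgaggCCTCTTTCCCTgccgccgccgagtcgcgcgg
RPL17, chr18:49492436-49492545, minus strand: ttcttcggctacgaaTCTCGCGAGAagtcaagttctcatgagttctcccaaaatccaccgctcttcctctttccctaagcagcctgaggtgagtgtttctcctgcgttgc
RPS4X, chrX:72277219-72277328, minus strand: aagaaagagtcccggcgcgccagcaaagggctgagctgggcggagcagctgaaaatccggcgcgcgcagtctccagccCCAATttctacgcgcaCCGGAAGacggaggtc
RPL13A, chr19:49487528-49487637, plus strand: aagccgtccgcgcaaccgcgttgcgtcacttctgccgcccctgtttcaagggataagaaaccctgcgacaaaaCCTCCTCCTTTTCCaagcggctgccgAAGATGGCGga
RPL26, chr17:8383164-8383273, minus strand: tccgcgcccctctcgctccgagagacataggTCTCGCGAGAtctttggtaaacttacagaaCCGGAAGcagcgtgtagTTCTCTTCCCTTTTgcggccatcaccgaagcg
RPS19, chr19:41860175-41860284, plus strand: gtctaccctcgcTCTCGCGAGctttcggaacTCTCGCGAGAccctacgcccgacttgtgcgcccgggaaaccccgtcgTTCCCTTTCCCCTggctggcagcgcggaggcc
RPL21, chr13:27251478-27251587, plus strand: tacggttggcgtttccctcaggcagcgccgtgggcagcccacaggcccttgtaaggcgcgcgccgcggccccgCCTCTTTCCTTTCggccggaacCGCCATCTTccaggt
RPS14, chr5:150449710-150449819, minus strand: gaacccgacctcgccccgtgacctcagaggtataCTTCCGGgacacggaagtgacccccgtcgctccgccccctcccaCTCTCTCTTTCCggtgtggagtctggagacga
RPLP0, chr12:120201082-120201191, minus strand: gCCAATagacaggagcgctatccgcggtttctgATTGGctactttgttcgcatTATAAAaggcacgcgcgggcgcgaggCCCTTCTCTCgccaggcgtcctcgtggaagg
RPS28, chr19:8321416-8321525, plus strand: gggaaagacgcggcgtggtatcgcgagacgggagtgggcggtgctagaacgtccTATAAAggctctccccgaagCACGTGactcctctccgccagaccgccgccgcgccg
The pyrimidine run is visible in capitals near the right-hand end of 8 of these 11 promoters and in neither of the 2 lowest, RPL17 and RPS4X, nor in RPS28, whose listed starts are A.

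Of the 77 genes, 76 had a peak summit, the position of highest signal, within 1 kb of an end (83% of all protein-coding genes did). Every value given as a fold is the authors' fold enrichment of a peak over background at its summit, and a gene's value is that of its strongest such peak, or 0 without one. The median over the 77 genes was 119.6-fold (interquartile range 98.5 to 160.3), against 43.5-fold (3.64 to 111.7) over all protein-coding genes. At 100-fold or more stood 55 genes (71.4%), where 29.2% of all protein-coding genes did. All but RPL13A exceeded the median of all genes, and 44 exceeded the upper quartile. Of the 77 genes, 7 passed the 95th percentile of all genes (214.6-fold), as 999 of 19974 protein-coding genes did. The 99th (289.4-fold) was passed by 0 of the 77 and by 199 of 19974. A set of 77 is too small to read this as a lack of extremes. The highest protein-coding gene reached 654-fold. The ratio of the upper to the lower quartile was 1.63 for the members, against 30.7 over all genes, whose lower quartile was only 3.64-fold. Lists more like the members were nearer: 1.96 for mitochondrial ribosomal protein genes and 1.93 for proteasome genes. With 1 pooled profile, an opening present in fewer cells and a weaker opening in every cell cannot be told apart.

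**Figure D1:**
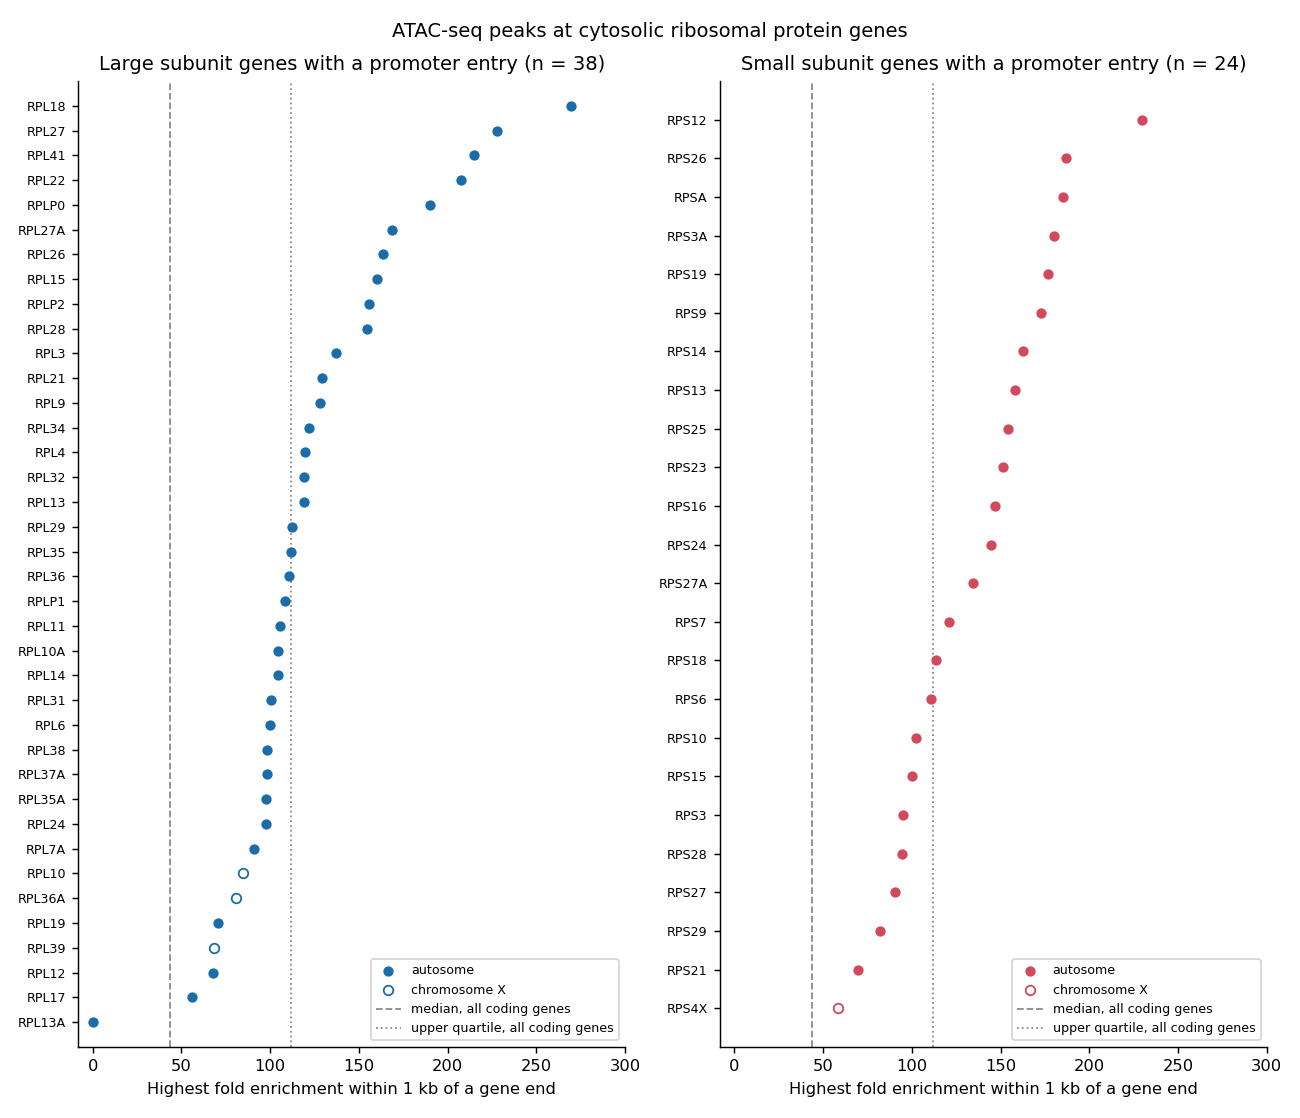
Highest fold enrichment of a peak with its summit within 1 kb of either gene end (horizontal axis), for the 38 large and 24 small subunit genes with a promoter entry, in order of their value. Each point is 1 gene in the pooled peak list, and open points lie on chromosome X. RPL13A sits at 0, the other genes lie between 56.2 and 269.7, and all 4 open points lie below 100.

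The pooled peak list itself set the precision of these values. It held 308732 peaks with a median of 3.46-fold. A single background of 93.5 overlapping reads or fragments was fitted to a sample of weaker peaks. No peak of the members' height entered the fit. With that background carried over to their height, exact Poisson 95% intervals for counting error alone were 266 to 273 for the highest member. They were 54.7 to 57.7 for the lowest with a summit. Of 9 blood progenitor markers, 7 had a summit at an end (median 30.9-fold), and TAL1 and GATA2, with none, lay under peaks of 104.7-fold and 54.9-fold. Of 7 markers of other cell types, 4 had one (median 1.93-fold, COL1A1, a fibroblast collagen, the highest at 60.6-fold). The blood markers stood below the 83% and the median of 43.5-fold of all protein-coding genes, so summits at ends do not by themselves check the label. Depth of single libraries is unknown.

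Large subunit genes had a median of 115.8-fold (interquartile range 98.1 to 155.3), with 32 of 46 (69.6%) at 100-fold or more. Small subunit genes had a median of 144.7-fold (101.2 to 164.9), with 23 of 31 (74.2%). Both lay above the 29.2% of all protein-coding genes, and the ranges of both, leaving out RPL13A, overlapped almost wholly. The size of the difference between the subunits, but not its direction, changed with how a peak was assigned and which genes entered. Counted at the annotated start only, the medians were 107.1-fold for 38 large and 127.6-fold for 24 small subunit genes. These are only the genes with a listed start. Mitochondrial ribosomal protein genes, which serve the separate ribosome of mitochondria, had a median of 112.0-fold (76.1 to 148.9), and 43 of 77 (55.8%) reached 100-fold. Proteasome genes, whose products form the main protein-degrading machine, had a median of 112.1-fold (86.2 to 166.3), and 20 of 31 reached 100-fold. A list of 19 genes mostly of translation factors, many of whose messages are also known to begin with a pyrimidine tract, stood higher, at a median of 174.8-fold, with 14 at 100-fold or more. Counted at the first annotated start only, the order differed: the median was 111.2-fold for the cytosolic genes (40 of 62 at 100-fold or more), 119.0-fold for the mitochondrial ribosomal protein genes (43 of 69) and 134.0-fold for the proteasome genes (19 of 26). Which of these lists stood higher thus depended on how peaks were assigned.

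**Figure D2:**
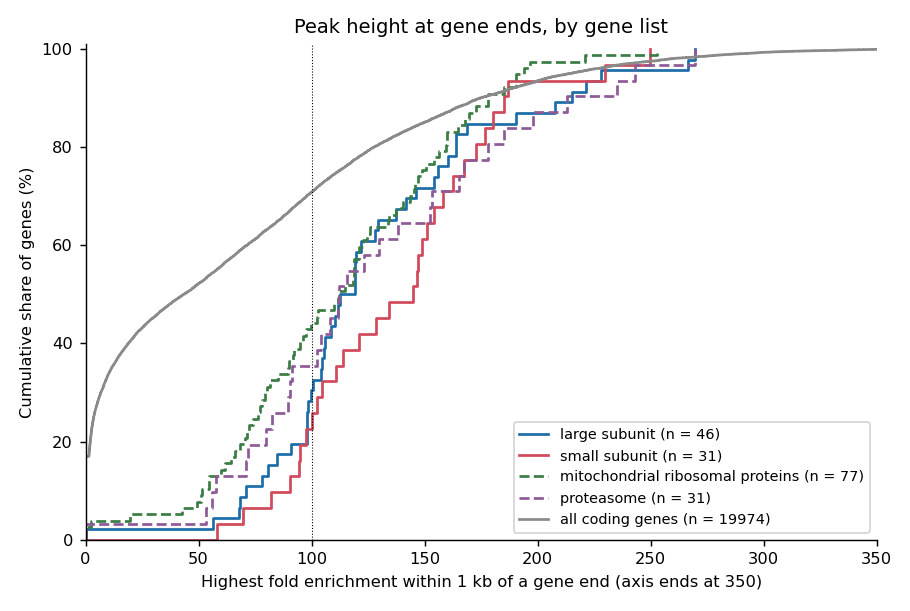
Cumulative share of genes (vertical axis, %) up to a given highest fold enrichment within 1 kb of a gene end (horizontal axis), for the large and small subunit genes, mitochondrial ribosomal protein genes, proteasome genes and all protein-coding genes. The dotted line marks 100-fold. The curves of both subunits stay low until just before 100 and then rise steeply, whereas the curve of all genes starts with the genes that have no summit at an end.

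Among large subunit genes, the highest value was that of RPL18 at 269.7-fold (chromosome 19, peak 48618434 to 48620424), with its summit 209 bp upstream of the start. Mutations of RPL18 are known in Diamond-Blackfan anemia, an inherited failure of red cell production. RPL27 had 228.0-fold and RPL23A 221.3-fold. RPL23A sits at the exit of the peptide tunnel, where factors that handle new chains dock. RPL41, which encodes the smallest ribosomal protein, followed at 215.0-fold, RPL22, a gene deleted in some T cell leukaemias, at 207.6-fold and RPLP0 at 190.3-fold. RPL27A had 168.6-fold.

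Among small subunit genes, RPS12 had 229.8-fold (chromosome 6, 132812241 to 132817056) and RPS26 187.0-fold. RPS26 contacts the message upstream of the start codon. RPSA, whose loss is known to cause congenital absence of the spleen, had 184.9-fold, and RPS3A had 180.4-fold. RPS19, the gene most often mutated in Diamond-Blackfan anemia, had 176.8-fold, with a summit 495 bp upstream of its first listed start. RPS14, the gene tied to the anemia of the 5q deletion syndrome, had 162.4-fold. All of these exceeded the upper quartile of all genes.

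At the lower end, RPL17 had 56.2-fold at its start (chromosome 18, 49491353 to 49492847), with the summit 14 bp upstream. Its protein lines the peptide tunnel. A stronger peak of 139.6-fold began beyond its 3′ end and reached into its last bases, with its summit at an end of the neighbour C18orf32. RPS4X had 58.3-fold (chromosome X, 72276539 to 72277672) and RPL12, part of the base of the factor-binding stalk, 67.8-fold. The next were RPL39, a small tunnel protein, at 68.1-fold, RPS21 at 69.6-fold, RPL19 at 70.8-fold, RPL23 at 78.0-fold, RPL36A at 80.8-fold and RPS29 at 81.9-fold. Each of these still exceeded the median of all protein-coding genes. RPS27, RPS28 and RPS3 followed among small subunit genes with 90.3-fold, 94.4-fold and 94.98-fold. Values near the 100-fold line were close together: RPS15 had 99.96-fold and RPL6 99.7-fold, and RPL31 100.5-fold and RPS10 102.4-fold.

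RPL13A, whose protein is also known for a role in translational silencing after interferon, had no summit within 1 kb of an end. It lay wholly under a wide peak whose summit was farther away, so the signal at the RPL13A start itself is not given by the list.

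By role, the 3 genes of the P stalk, which recruits the elongation factors, all reached 100-fold: RPLP0 at 190.3-fold, RPLP2 at 155.7-fold and RPLP1 at 108.5-fold. RPL5 and RPL11, whose proteins carry the 5S RNA and can bind MDM2 and so stabilise p53, had 146.3-fold and 105.6-fold. The 8 genes of the peptide tunnel and its exit ranged from RPL17 at 56.2-fold to RPL23A at 221.3-fold, with a median of 106.0-fold and 5 at 100-fold or more. The 6 genes of the mRNA entry channel and the head of the small subunit spanned 94.98-fold (RPS3) to 149.0-fold (RPS20), with a median of 121.1-fold and 4 at 100-fold or more. The 18 genes mutated in Diamond-Blackfan anemia had a median of 132.8-fold, from RPS29 at 81.9-fold to RPL18 at 269.7-fold, and 14 of them reached 100-fold. The tunnel, entry channel and anemia groups thus each held genes on both sides of 100-fold.

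The 4 members on chromosome X were all low. RPL10, which joins the large subunit late in its maturation, had 84.5-fold, RPL36A 80.8-fold, RPL39 68.1-fold and RPS4X 58.3-fold, and 0 of the 4 reached 100-fold, against 55 of 73 on autosomes. All 4 were among the 10 lowest members with a summit. Over all protein-coding genes the same direction was seen: 848 genes on chromosome X had a median of 10.9-fold, with 6.13% at 100-fold or more, and 19126 on autosomes had 46.9-fold and 30.2%. Among genes with a summit, the medians were 29.5-fold and 69.2-fold. Each X-linked member exceeded the X median.

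The position of the summit could be set against a start for the 62 members that have a promoter entry with strand in the RefSeq table used. Within 1 kb of the first annotated start, 60 of the 62 had a summit, with a median of 111.2-fold (94.6 to 153.5). At 100-fold or more were 40 of 62, beside 31.3% of the 15813 protein-coding genes with such an entry. The summit lay upstream of the start in 52 of the 60, at a median of -78 bp (interquartile range -133 to -38), and within 250 bp of the start in 53 (88.3%). All protein-coding genes with a summit at the start had a median of -60 bp (-140 to 49), with 77.3% within 250 bp and 8024 of 12498 upstream. Large and small subunit genes were alike in this, with medians of -77.5 and -88.5 bp. The 4952 protein-coding genes with 100-fold or more at the start, which are closer to the members in height, had a median of -98 bp, with 85.3% within 250 bp and 3847 upstream, so the members' summits lay about where those of other strong promoters did.

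**Figure D3:**
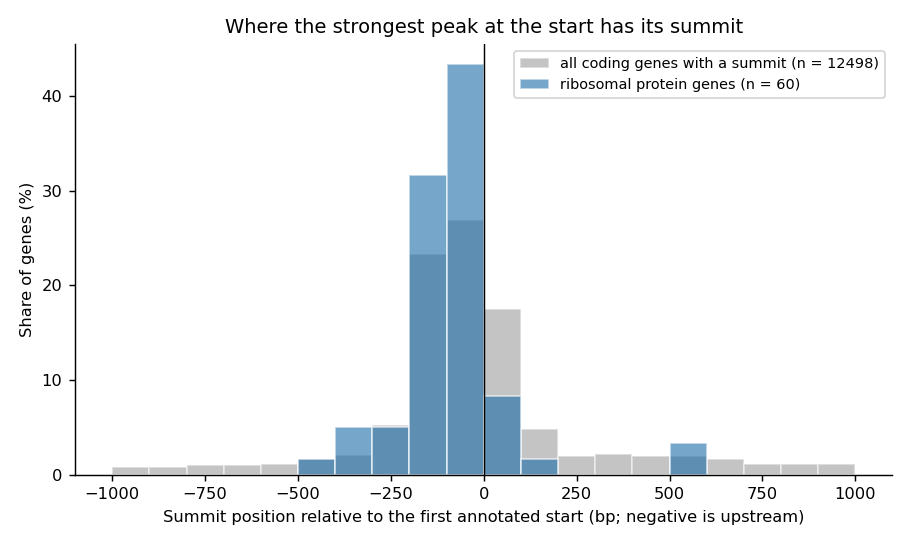
Position of the summit of the strongest peak relative to the first annotated start (horizontal axis, bp in 100-bp bins, negative is upstream), as a share of genes (vertical axis, %), for 60 ribosomal protein genes and 12498 protein-coding genes. The ribosomal protein genes gather just before the start, and RPL15 and RPS27A form the small bar farthest to the right.

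For 4 genes with several listed starts, the offset depended on the start chosen. In RPS27A, which encodes ubiquitin fused to a ribosomal protein, the summit lay 575 bp downstream of the first start but 210 bp upstream of the third, where the start is a C in a run of 12 pyrimidines. In RPL15 it lay 507 bp downstream of the first and 46 bp upstream of the second. In RPL10 the offset changed from 191 bp downstream to 121 bp upstream at the second start, which is a C in a run of 13 pyrimidines. In RPL6, which has 2 listed starts, the first had a peak of only 6.43-fold, whereas the second had 70.7-fold with its summit 269 bp upstream. The annotated model of RPL6 runs on to the PTPN11 promoter, and the 99.7-fold peak at that end lay beside PTPN11. In each of these 4 genes the strongest peak among the listed starts thus lay upstream of a later start rather than of the outermost one.

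Several strong peaks counted for a member lay closer to another gene or at its 3′ end. RPL41 had no summit at its start: its 215.0-fold summit lay 1549 bp downstream, past the 3′ end, near ZC3H10, although that peak covered RPL41 whole. RPL4 had 119.6-fold at its 3′ end beside SNAPC5 and 67.2-fold at its start, RPL27A 168.6-fold near its 3′ end and 121.0-fold at its start, and RPS9 172.6-fold past its 3′ end and 110.5-fold at its start. RPS29 had 81.9-fold at the outer start, beside LRR1, and a stronger peak of 184.9-fold inside its long annotated model, 12197 bp from that start. In RPL24 a 176.6-fold peak with its summit near ZBTB11 reached within 1 kb of the 3′ end, and the peak at the start had 97.9-fold. Weaker peaks stood at the other end of RPS18 (98.7-fold), RPL26 (76.5-fold) and RPL7A (55.4-fold). A summit of 20-fold or more at the far end, apart from any summit within reach of the start, was found in 8 of 62 members, among them RPL41 with its only peak, against 1010 of 15813 protein-coding genes.

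For 20 members, 13 large and 7 small, the end of another protein-coding gene lay within 1 kb of the summit that gave their value. The share over all protein-coding genes was not counted, so this number is not read as a trait of the members. Among the 20 were RPL18 (SPHK2), RPL41 (ZC3H10), RPL7 (RDH10), RPLP2 (PIDD1), RPS25 (TRAPPC4), RPL5 (DIPK1A), RPS27A (CLHC1), RPL9 (LIAS), RPL4 (SNAPC5) and RPS18 (VPS52). The rest were RPL35 (ARPC5L), RPL6 (PTPN11), RPS28 (NDUFA7), RPL7A (MED22), RPS27 (RAB13), RPS29 (LRR1), RPL12 (LRSAM1), RPL36A (BTK and a readthrough model), RPS10 and RPL17 (each only its own readthrough model with a neighbour). Such a peak cannot be divided between both genes. The median of these 20 was 112.7-fold, and that of the other 57 was 121.7-fold. Of the members above the 95th percentile of all genes, 2 were among the 20, RPL18 and RPL41, and 5 among the 57.

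Ribosomal protein genes are short, and peaks covered much of them. Over the 77 genes a median of 67.3% of the gene lay under peaks (large subunit 67.7%, small subunit 65.9%). From end to end, 9 of the 77 were covered, against 492 of 19974 protein-coding genes. Between the 10th and 90th percentile of the members' lengths (2525 to 11817 bp), 61 members had a median of 67.3% (43.1 to 88.6). The 4786 protein-coding genes of that range had 26.7% (10.4 to 52.3), the 1255 of them with 100-fold or more had 35.8%, and 37 mitochondrial ribosomal protein genes had 25.8%. Covered whole in that range were 6 of 61 members (9.84%) and 177 of 4786 protein-coding genes (3.70%). With 100-fold or more the order was reversed, with 2 of 46 members (4.35%) and 77 of 1255 protein-coding genes (6.14%). The members were also shorter within that range, with a median length of 5011 bp against 6490 bp for all its protein-coding genes and 6854 bp for those with 100-fold or more, and the part of length in the difference was not tested further. With only the more significant 50% of the peaks, members of that range had 46.2% and all protein-coding genes of it 20.9%.

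**Figure D4:**
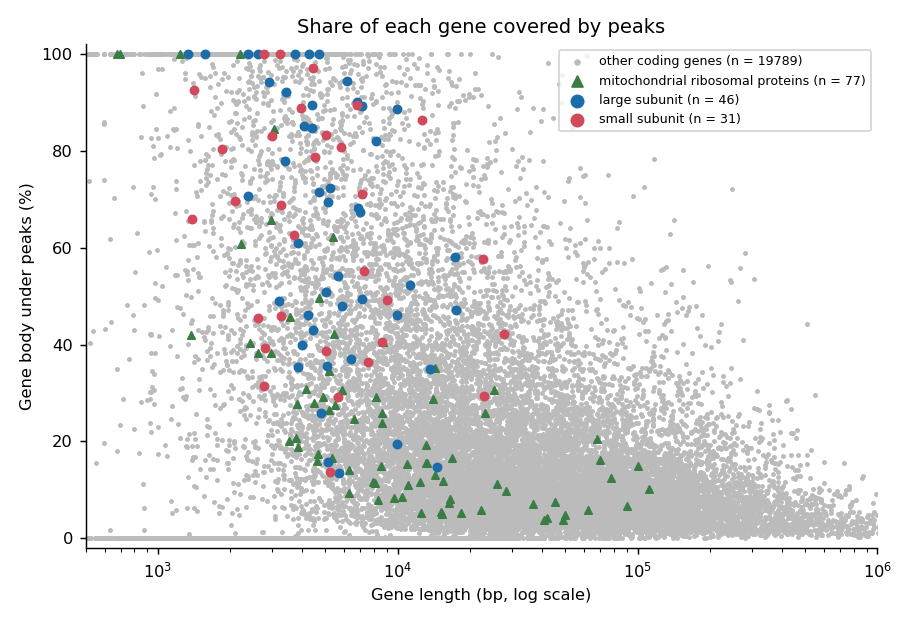
Share of each gene under peaks (vertical axis, %) against gene length (horizontal axis, bp, log scale), with 1 point per gene for large and small subunit genes, mitochondrial ribosomal protein genes and the other protein-coding genes. At lengths of 2525 to 11817 bp the members centre on 67.3% and the mitochondrial ribosomal protein genes on 25.8%.

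The peaks at the ends of the members had a median width of 2732 bp, against 1928 bp over all protein-coding genes with a summit. Among genes of 2525 to 11817 bp with 100-fold or more, the medians were closer. They were 2778 bp for 46 members and 2516 bp for 1255 protein-coding genes. Wide peaks lay at RPL36 (10994 bp), RPL10A (9573 bp) and RPL12 (9215 bp), each covering the whole gene. RPL8 (8747 bp) and RPS2 (7661 bp) were also covered whole. These wide peaks were not the highest: RPL36 had 110.5-fold and RPL12 67.8-fold. Least covered were RPL26 (13.6%), RPS4X (13.6%), RPL22 (14.7%), RPL39 (15.7%) and RPL5 (19.4%), of which RPL22 and RPL26 had high peaks at their starts (207.6-fold and 163.6-fold). In all, 250 peaks overlapped the members or the 1 kb beside them. Of these, 92 had 50-fold or more and 105 were under 5-fold, and 16 members had at least 2 of 50-fold or more. Over the gene itself, 17 members had a single peak. The median number of peaks over a gene of 2525 to 11817 bp was 2 for 61 members and 2 for 4786 protein-coding genes. The other counts were not made over all protein-coding genes, so they are not read as traits of the members.

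Many ribosomal protein genes carry small nucleolar RNAs, guides for the modification of ribosomal RNA, in their introns. In the RefSeq table, 60 lay inside 29 members, 20 of the large and 9 of the small subunit. Host members had a median of 129.4-fold at an end and the other 48 had 113.2-fold, but 100-fold was reached by 20 of 29 hosts (69.0%) and 35 of 48 others (72.9%), so the measures differed in direction. For comparison, 526 protein-coding genes with such an RNA inside had 84.5-fold. Away from the genes, distal peaks (over 1 kb from every coding gene end, counted within 50 kb) numbered 16.4 per 100 kb around the members (12.6 to 21.4), and 14.02 around all protein-coding genes. Among genes of 2525 to 11817 bp with 100-fold or more, the order was reversed, with 15.5 around members and 16.65 around protein-coding genes. Of all members, RPS14 had the most, with 34.5, and RPS6, whose protein is phosphorylated downstream of mTOR, the fewest, with 2.87.

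The printed promoters show what most members share in sequence. At the first annotated start, 46 of 62 promoters had the base C (74.2%), against 11.3% of 15813 promoters of protein-coding genes. In 44 (71.0%) this C lay in a pyrimidine run of at least 5 bases, against 7.49%, and in 40 (64.5%) a run of at least 8 bases crossed the start, against 4.60%. Over any listed start, the count was 48 of 62 against 1569 of 15813. The runs differ in letters but not in kind, as the 12 bases of RPL18, the 11 of RPS12 and the 14 of RPL13A show above. Members with the run had a median of 113.2-fold at the start (44 genes) and members without it 102.2-fold (18 genes), and their ranges overlapped almost wholly.

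Other motifs were searched in 300 bases, from 250 before the start to 50 from it onward, on both strands except for TATAAA. The ETS-type CCGGAAG was found in 21 of 62 promoters (33.9%; 14.1% of all promoters), as in RPL26, RPS14 and RPS4X above, where CTTCCGG is the same motif on the other strand. The palindromic CTCGCGAGA was found in 6 (9.68%; 1.05% of all): RPL17, RPL26, RPL27A, RPL4, RPS19 and RPS6. In RPS19 it occurs at 2 separate places, and because TCTCGCGAGA reads the same on both strands, its matches on opposite strands overlap, shifted by 1 base. AANATGGCG, the YY1 motif, was found in 8 (12.9%; 4.79% of all), 7 of them large subunit genes, and 5 of the 8 held it after the start, as RPL21 and RPL13A do. Over these 300 bases ETS, YY1 and CTCGCGAGA matches were more frequent here than among all promoters, while in only the 100 bases before the start YY1 matches were found in 0 of 62 (0.67% of all).

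The remaining motifs were not. CCAAT, bound by NF-Y, was found in 22 (35.5%; 36.4% of all), 17 of them large subunit genes, and RPLP0 above holds it on each strand. GCGCANGCG, the NRF1 motif, was found in 7 (11.3%; 11.1%), and GGGGCGGGG, the SP1 motif, in 5 (8.06%; 22.2%). CACGTG, the E-box to which MYC with MAX binds, was found in 3 (4.84%; 8.82%): RPL13A, RPL19 and RPS28, whose match spans the bases just before its start. TATAAA was found in 2 (3.23%; 6.95%), RPLP0 and RPS28, beginning 27 and 26 bases before the start. The members' promoters had a median GC content of 59.0% (62.7% over all promoters) and a CpG observed-to-expected ratio of 0.911 (0.762). A match describes letters in this window only, and with no value per library none of these matches could be set against doxycycline.

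**Figure D5:**
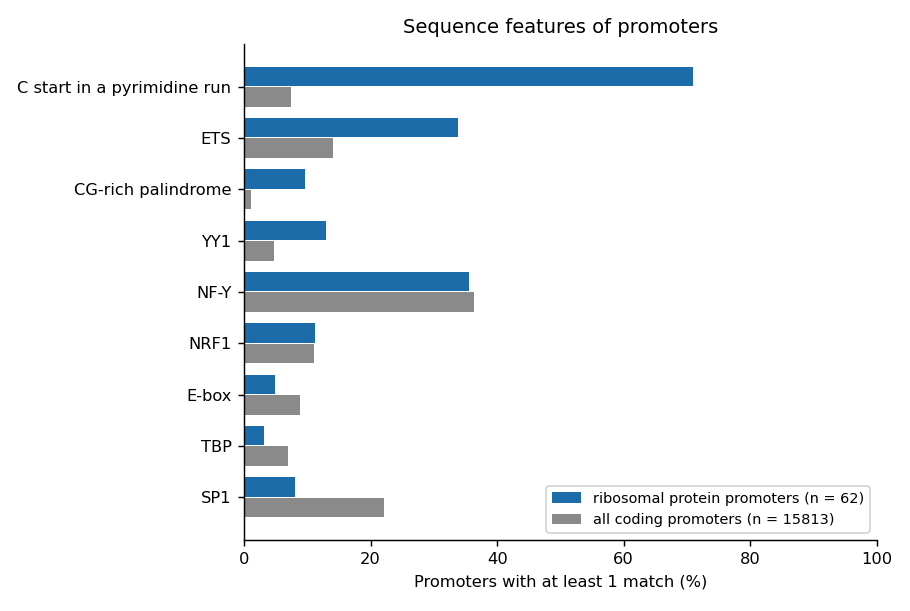
Share of promoters with at least 1 match (horizontal axis, %) for 9 sequence features, in 62 ribosomal protein promoters and 15813 promoters of protein-coding genes. The C start in a pyrimidine run differs most, at 71.0% against 7.49%, and the SP1 motif is less frequent in the ribosomal protein promoters, at 8.06% against 22.2%.

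Ribosomal protein messages have often been copied back into the genome, and such pseudogenes share most of their sequence with the parents but not their promoters. RefSeq lists 1967 copies of the 77 genes by name, from 4 to 137 per parent (median 17), with RPL21 (137), RPL23A (95), RPL7A (80) and RPSA (74) leading. A summit lay inside 170 of them (8.64%), against 16.2% of 14491 other pseudogenes and 9.06% of the 3830 others in the copies' length range. The median of those summits was 3.43-fold, and 0 copies exceeded the highest peak at their parent. At 20-fold or more were 14 of 1967 copies, 537 of the 14491 other pseudogenes and 40 of the 3830 in the copies' length range. The 64 copies of RPL31 and the 59 of RPS26 held 0 summits. Most copies held no summit inside them, and the share with one was close to that of others in their length range. The 76 of 77 parents were counted by summits within 1 kb of an end, which is not a like measure. How reads that fit several copies were handled is not given in the sources used here, so a copy without a peak is not shown to be closed.

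Of the 10 copies with the highest summits, 4 were long annotated models. RPL23AP82 reached 148.9-fold in a model of 42552 bp, RPL23AP53 81.1-fold in 23975 bp, RPLP0P2 35.9-fold in 24414 bp and RPL32P3 33.5-fold in 16606 bp. Among short ones, RPL5P28 (1844 bp) had 63.4-fold, RPL23AP65 (540 bp) 51.8-fold, RPL36AP7 (413 bp) 38.4-fold and RPS3P4 (768 bp) 34.7-fold. RPL9P33 (28.3-fold) and RPL9P14 (25.7-fold) completed the 10 highest. The high values of long models come from summits anywhere in the model and need not lie in the copied part.

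Of 8 paralogs that can replace a member in certain tissues, 6 had 100-fold or more at an end, where 29.2% of all protein-coding genes did. RPL36AL had 182.6-fold at an end, RPL3L, the heart and muscle form of RPL3, 164.3-fold, RPL39L 122.1-fold, RPL7L1 119.5-fold, RPL22L1 118.6-fold and RPS27L, a p53 target, 100.6-fold. RPL26L1 had 14.3-fold at an end of its gene model and 138.3-fold at its listed start inside that model. RPL10L, a testis-specific copy without introns, had 0. The paralog list also named RPS4Y1, which lies on chromosome Y and was not analysed here. The summits of RPL36AL and RPL3L lay within 1 kb of an end of MGAT2 and MSRB1. That of RPL3L lay 642 bp outside its gene model. RPL3L and RPL39L have no listed start here, so their values do not show an open start of either gene. Of the ribosomal proteins with other names, FAU had 148.9-fold (beside MRPL49) and RACK1 106.7-fold at an end.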

How the data were processed

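ATAC-seq peaks of blood progenitors made from H1 cells were analysed from 1 peak list that pools libraries without naming them. Per the submitters' processing notes, reads were handled with Bowtie2 2.2.8, Picard 2.2.4 and Trim Galore 0.6.5, with no order given, and the deposited peak names carry MACS 2.1.0 and GENCODE 36. Read filters, a correction for the transposase's offset and the pooled libraries are not given in the sources used here. The deposited list gives each peak a score, a fold enrichment (a linear ratio to background, used here), a −log10 p-value, which ranked peaks for the stricter list, and a −log10 q-value. The authors' score and the deposited −log10 q were not used.

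Genes, strands and promoters came from RefSeq tables of GRCh38.p14, which give no exons or UTRs. The peak names and processing notes name GRCh38, and chromosome coordinates do not differ between its patch releases. All 77 members matched the gene table and 62 the promoter table; the other 15 had no promoter entry. A peak counted where its summit lay within 1 kb of a gene end. No test was made, since the list has no replicates. Exact Poisson intervals for counting error were made from a background of 93.5, fitted to the deposited fold and p-values of a sample of weaker peaks.

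The members and the gene lists were chosen with earlier results of these data known. Named in full were the 5 highest and 5 lowest members of each subunit, members without a summit, the 5 widest peaks, the 5 least covered members, those sharing a peak with another gene, the paralogs and the 10 highest pseudogenes. Some genes that meet these rules are not reported here by name, but all members enter the counts and medians. The groups by chromosome X, snoRNAs and length range, and the neighbours at single loci, were chosen after values were seen. RPS30, listed with the mRNA entry genes, is encoded by FAU and falls outside the naming rule. Alternatives were other windows, overlap in place of summits, starts only, summits nearest to the gene itself, the more significant 50% of the peaks and leaving out chromosome X. Assignment of planted peaks was tested on simulated data. Python 3.11.15, numpy 2.4.6, pandas 2.3.3, scipy 1.17.1 and matplotlib 3.10.9 were used.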

Additional observations from a re-analysis of the deposited data

How the results depend on the processing

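No paired analysis was possible because the peak list names no library, and no library could be left out for the same reason. Across the alternatives the count of members with a summit ran from 59 to 77 and the count at 100-fold or more from 39 to 58, where the lowest values come from the 62 members with a listed start. Among all 77, the lowest were 66 and 49, with summits nearest to the gene itself, against 76 and 55. The large subunit median moved from 115.8-fold to 112.0 (0.5 kb), 119.2 (2.5 kb), 119.5 (any overlap), 107.1 (start only), 105.1 (most downstream start, chosen after the data were seen), 119.3 (without chromosome X) and 107.2 (summits nearest to the gene itself). The small subunit median moved from 144.7-fold to 128.3 (0.5 kb), 127.6 (start only) and 127.6 (most downstream start), so it stayed above that of the large subunit under each alternative run. Using the more significant 50% of the peaks, the covered share moved from 67.3% to 52.4%. In only the 100 bases before the start, CACGTG was in 1 promoter of 62 (4.18% of all promoters), CCGGAAG in 11 (8.06%), AANATGGCG in 0 (0.67%), GCGCANGCG in 4 (6.50%), GGGGCGGGG in 3 (14.8%) and CCAAT in 13 (21.0%). Fewer bases were searched there. The members' shares of 17.7% for CCGGAAG and 8.06% for CTCGCGAGA (0.658% of all) stayed above those of all promoters, and those for GCGCANGCG (6.45%) and CCAAT (21.0%) lay at them. The summit position moved from -78 to between -80 and -76 bp. A peak may come from a part of the libraries, and the depth of each is unknown.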
